A study of Drosophila melanogaster with 6 samples.

Results

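The genes described here are 40 myogenic, myoblast fusion and sarcomere genes of Drosophila melanogaster, taken as a named list and matched by gene symbol to the authors' deposited table. All 40 were found among the 17493 gene identifiers that were counted, and all 40 passed the filter on low counts that left 10526 tested genes. RNA was sequenced from whole embryos aged 10 to 15 hours of a pair of lines engineered at shaggy (sgg), the fly glycogen synthase kinase 3 gene. The mutant line, sggisoD-CI-DS-SFS, was homozygous for changes at 2 caspase recognition sites. The control line, sggisoD-DS-SFS, was otherwise wild type. Both lines carried a DsRed tag at the N terminus of Shaggy and a StrepII-Flag-StrepII tag within the protein. Each line gave 3 embryo collections, described by the submitters as independent and matched in stage. Each line is a single stock, so an effect of the changed sites and any other difference between the stocks cannot be told apart.

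Body wall muscles of the fly embryo form when founder myoblasts fuse with fusion-competent myoblasts. Immunoglobulin-domain receptors on both cell types recognise each other, and adaptor proteins inside the cells then remodel actin at the contact. The resulting myotubes assemble sarcomeres, in which thick filaments of myosin slide past thin filaments of actin. Tropomyosin and the troponin complex make this movement depend on calcium, and Z-discs anchor the thin filaments. Regulators and fusion genes act early in this programme and sarcomere genes are expressed late, so the list spans its course.

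Libraries held 12646077 to 19454630 counted reads. Levels are given as TMM-normalised CPM, the read count scaled to library size, and log2 fold changes with their standard errors (SE) are mutant over control from edgeR's quasi-likelihood test with Benjamini-Hochberg adjustment over all tested genes. A gene was called at an adjusted p under 0.05. The gene sgg itself averaged 306 ± 2.77 CPM in the mutant line and 302 ± 15.5 CPM in the control line (SD, n = 3 each), a count that covers all its transcripts. In whole embryos, a difference in the number of muscle cells and a difference in RNA per muscle cell cannot be told apart.

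Of the 40 genes, 20 rose, 2 fell and 18 did not pass the threshold. Over all tested genes, 13.7% rose, 8.67% fell and 22.3% were called in either direction. The 30 sarcomere and muscle function genes held all 20 that rose, and 28 of them had a positive estimate. Their median log2 fold change was 0.30, against -0.01 over all tested genes. The 10 regulators and fusion genes held both genes that fell, 9 had a negative estimate, and their median was -0.13. For 24 of the 40 genes the 3 mutant values all lay above the 3 control values, as they did for 21.9% of all tested genes. For 5 genes they all lay below, against 20.0% of all tested genes, and 41.9% of all tested genes showed one or the other.

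**Figure D1:**
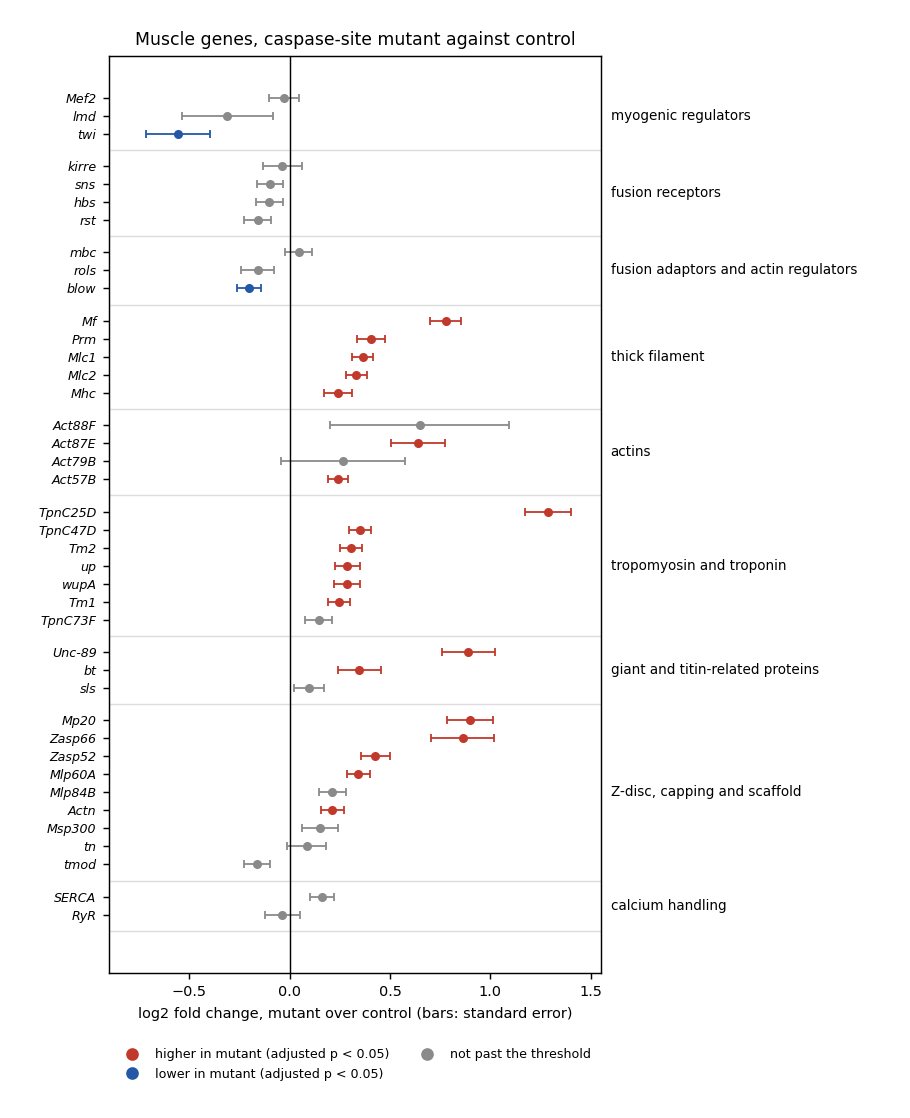
Log2 fold change of each of the 40 genes, mutant over control, on the x axis, with genes grouped by role down the y axis. Points are edgeR estimates, bars are standard errors, and colour marks the adjusted p threshold of 0.05. The thick filament genes all lie right of 0, and TpnC25D lies farthest right at 1.29.

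Well counted genes are called more readily, and most muscle genes are abundant. Among the 2044 tested genes that averaged at least 100 CPM, a level chosen after the data were seen, 15.4% rose, 14.3% fell and 29.7% were called in all. The list held 30 genes at that level, of which 19 rose and 0 fell. In 22 of the 30 all mutant values were the higher ones and in 1 all were the lower, against 24.4% and 27.4% of the 2044 genes and 51.8% for either. Together the 40 genes took 4.82% ± 0.03 of all counted reads in the mutant libraries and 4.08% ± 0.22 in the control libraries (SD, n = 3 each), and the groups did not overlap. Its largest parts were Act57B (mean 10562 CPM in mutant and 8929 in control), Mhc (6494 and 5496) and Mlc2 (4417 and 3511). This share therefore says little about the less abundant genes of the list.

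A limma-voom fit of these libraries is held in the authors' deposited table, where 20 of the 40 genes rose and 1 fell. Of all genes in the authors' deposited table, 14.0% rose and 22.6% were called. Each of these 21 genes was also called by edgeR. The gene called by edgeR alone was blow, with an adjusted p of 0.0507 in the authors' deposited table.

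The regulators of the muscle programme were examined first. Mef2, the MADS-box factor that switches on many muscle structural genes, had 174, 196 and 192 CPM in mutant libraries 1, 2 and 3, against 205, 179 and 189 CPM in control libraries 1, 2 and 3. The groups overlapped, with a log2 fold change of -0.03 (SE 0.08) and an edgeR adjusted p of 0.836. The mesoderm factor gene twi, which acts before muscle cells differentiate, had 6.90, 5.46 and 7.69 CPM in the mutant libraries, against 9.83, 9.09 and 10.6 CPM in the control libraries. All mutant values were lower, and twi fell by 0.56 on the log2 scale (SE 0.16, edgeR adjusted p 0.0378). It rested on 83 to 196 reads per library, and the call was lost in 5 of the 6 leave-one-out fits, all but the one without mutant library 3, with an adjusted p of up to 0.0982. The zinc-finger factor gene lmd, which specifies fusion-competent myoblasts, averaged 6.27 ± 1.62 CPM in the mutant line and 7.84 ± 1.58 CPM in the control line, and its groups overlapped.

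None of the 4 fusion receptor genes passed the threshold. The founder cell receptor gene kirre averaged 48.0 ± 3.66 CPM in the mutant line and 49.3 ± 5.30 CPM in the control line (SD, n = 3 each). Its paralogue rst averaged 63.5 ± 1.37 CPM in mutant and 71.0 ± 3.82 CPM in control embryos. All 3 mutant values of rst lay below the control values, with a log2 fold change of -0.16 (SE 0.07) and an edgeR adjusted p of 0.128. Both genes are close to the engineered locus. Positions here are those of Ensembl release 115 on BDGP6, in which kirre lies on X at 2740384 to 3134532 on the forward strand, 60831 bases from sgg. The gene rst lies at 2950399 to 2973834 on the reverse strand, 270846 bases from sgg. The receptors of fusion-competent myoblasts, sns and hbs, had log2 fold changes of -0.10 each, with edgeR adjusted p of 0.331 and 0.333.

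Among the genes that act inside the fusing cells, blow encodes a protein of fusion-competent myoblasts that acts on actin assembly at the contact. It had 43.7, 44.2 and 43.7 CPM in the mutant libraries, against 50.5, 50.1 and 50.9 CPM in the control libraries. The collections of each line differed little, and blow fell by 0.20 on the log2 scale (SE 0.06, edgeR adjusted p 0.0468). That call was lost without any one of the 6 libraries (adjusted p 0.0703 to 0.114). Exons of blow overlap those of Vps13 on the opposite strand over 188 bases, and Vps13 had 2033 to 3711 reads per library. The gene mbc, encoding an activator of the small GTPase Rac, averaged 168 ± 7.26 CPM in mutant and 163 ± 9.66 CPM in control embryos. The founder cell adaptor gene rols averaged 105 ± 9.25 CPM in mutant and 117 ± 6.37 CPM in control embryos. Neither passed the threshold.

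All 5 thick filament genes rose. The muscle myosin heavy chain gene Mhc (2L, 16766566 to 16788766, forward strand) had 6583, 6254 and 6645 CPM in mutant libraries 1, 2 and 3, against 5011, 5474 and 6004 CPM in control libraries 1, 2 and 3. Control library 3 came closest to the mutant values. The log2 fold change was 0.24 (SE 0.07, edgeR adjusted p 0.0423), and the call was lost in 5 of the 6 leave-one-out fits, with an adjusted p of up to 0.172. Without control library 3 it was 0.0145. Upper-quartile scaling and library size alone also ended the call (0.0618 and 0.0871). The light chain genes varied less between control collections. Mlc1, for the essential light chain, had 1565, 1614 and 1532 CPM in the mutant libraries, against 1240, 1222 and 1200 CPM in the control libraries. It rose by 0.36 on the log2 scale (SE 0.05, edgeR adjusted p 0.00292). Mlc2, for the regulatory light chain, averaged 4417 ± 182 CPM in mutant and 3511 ± 32.9 CPM in control embryos and rose by 0.33. Both light chain genes were called whichever library was left out.

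The other thick filament genes encode proteins that build the filament core or bind it. Prm, for paramyosin, averaged 1645 ± 13.3 CPM in mutant and 1242 ± 101 CPM in control embryos and rose by 0.41 on the log2 scale (edgeR adjusted p 0.00494). Mf, for myofilin (FBgn0038294, 3R, 15170625 to 15181510, reverse strand), had 855, 834 and 788 CPM in the mutant libraries, against 477, 527 and 441 CPM in the control libraries. It was 1.71-fold higher in the mutant line, with a log2 fold change of 0.78 (SE 0.08, edgeR adjusted p 0.00101). The log2 ratio of Mf to Prm reads, which does not depend on library scaling, was -0.96, -0.97 and -1.06 in the mutant libraries, against -1.25, -1.25 and -1.60 in the control libraries. That ratio was higher in every mutant library than in any control library, for a pair chosen after the values were seen.

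**Figure D2:**
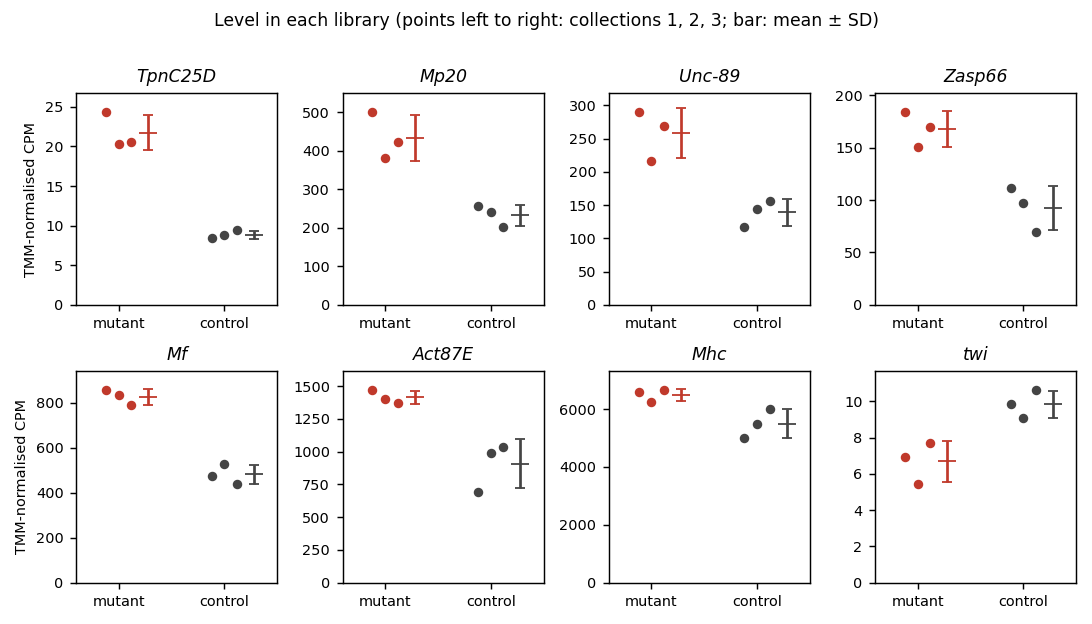
TMM-normalised CPM of 8 genes in each library, on axes that start at 0, with mutant left of control. Points are collections 1, 2 and 3 from left to right, and bars are mean ± SD (n = 3 per line). In the panels for TpnC25D, Mp20, Unc-89, Zasp66, Mf, Act87E and Mhc every mutant point lies above every control point, and in the panel for twi every one lies below.

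The actins were dominated by a single gene. Act57B, the main actin gene of embryonic and larval muscle, had 10325, 10821 and 10540 CPM in the mutant libraries, against 8638, 8959 and 9190 CPM in the control libraries. It rose by 0.24 on the log2 scale (SE 0.05, edgeR adjusted p 0.0106), and the adjusted p was 0.0555 without mutant library 3. Act87E, another actin gene of larval muscle (3R, 13425983 to 13428375, forward strand), had 1467, 1402 and 1372 CPM in the mutant libraries, against 693, 991 and 1036 CPM in the control libraries. Control library 1 was the lowest. Act87E rose by 0.64 (SE 0.13, edgeR adjusted p 0.0120), by 0.48 without control library 1, and its adjusted p was 0.0517 without mutant library 1. Per kilobase of exon, Act87E made up 10.4% ± 0.49 of the reads of the 4 muscle actin genes in mutant and 8.05% ± 1.35 in control embryos. Muscle actins have near-identical coding sequences, and how reads that match several genes were counted is not given in the sources used here, so the division between them is uncertain.

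Actin genes of adult muscle were barely counted. Act79B had 27, 35 and 22 reads in the mutant libraries, against 16, 39 and 24 reads in the control libraries. Act88F, the actin gene of the adult flight muscle, had 18, 21 and 17 reads in the mutant libraries, against 3, 21 and 17 reads in the control libraries. The only low library was control library 1, at the floor of 3 reads taken here as the limit of reliable detection. Act79B had a log2 fold change of 0.27 (SE 0.31) and Act88F one of 0.65 (SE 0.45), and neither passed the threshold (edgeR adjusted p 0.582 and 0.336).

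Of the 7 tropomyosin and troponin genes, 6 rose, and the 3 mutant values lay above the control values for all 7. The tropomyosin genes Tm1 and Tm2 averaged 2074 ± 84.4 and 1819 ± 85.8 CPM in mutant embryos and 1750 ± 36.7 and 1472 ± 22.7 CPM in control embryos. They rose by 0.25 and 0.31 on the log2 scale, with edgeR adjusted p of 0.0157 and 0.00706. The genes of troponin T (up) and troponin I (wupA) rose by 0.29 and 0.28, with adjusted p of 0.0142 and 0.0177 in the same test. Their log2 read ratio was 0.73 ± 0.05 in mutant and 0.73 ± 0.01 in control embryos (SD, n = 3 each). The calls of Tm1 and wupA were lost without control library 2 (adjusted p 0.0509 and 0.0501) and that of up without mutant library 1 (0.0519).

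Troponin C, the calcium sensor of the thin filament, is encoded by several genes, and they differed from each other. TpnC25D (FBgn0031692, 2L, 5216701 to 5219053, forward strand) had 366, 309 and 315 reads in the mutant libraries, against 107, 172 and 174 reads in the control libraries. This was 24.3, 20.3 and 20.5 CPM in the mutant libraries, against 8.41, 8.78 and 9.40 CPM in the control libraries. It was 2.45-fold higher in the mutant line, the largest estimate of the 40 genes, with a log2 fold change of 1.29 (SE 0.11, edgeR adjusted p 0.000793). Its exons overlap those of tkv on the opposite strand over 54 bases, and tkv had 2248 to 3152 reads per library. TpnC47D averaged 491 ± 12.0 CPM in mutant and 386 ± 5.27 CPM in control embryos and rose by 0.35 (edgeR adjusted p 0.00387). TpnC73F averaged 760 ± 52.9 CPM in mutant and 687 ± 19.4 CPM in control embryos and did not pass the threshold (0.155). Per kilobase of exon, TpnC25D made up 1.29% ± 0.16 of the reads of these 3 genes in mutant and 0.62% ± 0.04 in control embryos. TpnC73F made up 52.9% ± 1.47 in mutant and 56.7% ± 0.37 in control embryos, and for both shares the groups did not overlap.

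The giant proteins link the filaments into a lattice. The obscurin gene Unc-89 (named Obsc in the annotation, 2R, 23995543 to 24014254, reverse strand), which acts at the M-line, had 289, 217 and 268 CPM in the mutant libraries, against 117, 144 and 156 CPM in the control libraries. It was 1.85-fold higher in the mutant line, with a log2 fold change of 0.89 (SE 0.13, edgeR adjusted p 0.00321). The projectin gene bt had 3259, 2992 and 3395 CPM in the mutant libraries, against 2379, 2228 and 2978 CPM in the control libraries. Control library 3 reached almost the lowest mutant value. The gene bt rose by 0.35 (SE 0.11, edgeR adjusted p 0.0478), and among the leave-one-out fits its call held only without control library 3 (adjusted p 0.00643 to 0.184 over the 6). Other scalings ended it as well (0.0543 to 0.0853). The gene sls, whose titin-like products anchor the thin filaments at the Z-disc, averaged 1448 ± 85.2 CPM in mutant and 1355 ± 110 CPM in control embryos, and the groups overlapped.

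Among the 9 Z-disc, capping and scaffold genes, 5 rose. Mp20 (2R, 13246670 to 13248880, forward strand), which encodes a calponin-like actin-binding protein, had 499, 382 and 421 CPM in the mutant libraries, against 255, 241 and 203 CPM in the control libraries. It was 1.86-fold higher in the mutant line, with a log2 fold change of 0.90 (SE 0.12, edgeR adjusted p 0.00199). Zasp66 (3L, 8624371 to 8638813, forward strand), for a PDZ-domain protein of the Z-disc, had 184, 150 and 170 CPM in the mutant libraries, against 111, 96.8 and 69.5 CPM in the control libraries. It was 1.82-fold higher, with a log2 fold change of 0.86 (SE 0.16, edgeR adjusted p 0.00666), and 0.69 to 1.01 over the leave-one-out fits. The related gene Zasp52 averaged 297 ± 18.7 CPM in mutant and 221 ± 12.0 CPM in control embryos and rose by 0.43 (edgeR adjusted p 0.00472).

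The muscle LIM protein gene Mlp60A rose by 0.34 on the log2 scale, at 1109 ± 35.1 CPM in mutant and 874 ± 25.5 CPM in control embryos (edgeR adjusted p 0.00452). Its relative Mlp84B had 575, 653 and 607 CPM in the mutant libraries, against 502, 531 and 549 CPM in the control libraries. The groups did not overlap, but Mlp84B missed the threshold with an edgeR adjusted p of 0.0564. Actn, for the α-actinin that crosslinks thin filaments at the Z-disc, averaged 1066 ± 34.2 CPM in mutant and 920 ± 32.3 CPM in control embryos. It rose by 0.21 (edgeR adjusted p 0.0303), a call lost in 5 of the 6 leave-one-out fits, with an adjusted p of up to 0.144, and kept without control library 3. With library size alone it was 0.0623. Actn lies on X, 591641 bases from sgg, and its exons overlap those of east, CG4313 and usp.

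The thin filament capping gene tmod went the other way from its neighbours in the sarcomere. It had 266, 283 and 276 CPM in the mutant libraries, against 328, 298 and 296 CPM in the control libraries, so every mutant value was the lower. Its log2 fold change was -0.16 (SE 0.06), short of the threshold with an edgeR adjusted p of 0.110. With library size alone as the scaling the value was -0.20, with an edgeR adjusted p of 0.0427. That scaling also moved the median over all tested genes from -0.01 to -0.05. The nesprin gene Msp300 and the TRIM-NHL protein gene tn had log2 fold changes of 0.15 and 0.08, and their groups overlapped.

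Neither calcium handling gene passed the threshold. SERCA, for the pump that returns calcium to the sarcoplasmic reticulum, had 1108, 1093 and 1179 CPM in the mutant libraries, against 980, 991 and 1051 CPM in the control libraries. The mutant values lay above the control values, with a log2 fold change of 0.16 (SE 0.06, edgeR adjusted p 0.0858). RyR, for the channel that releases calcium, averaged 275 ± 15.5 CPM in mutant and 282 ± 30.1 CPM in control embryos, and the groups overlapped.

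**Figure D3:**
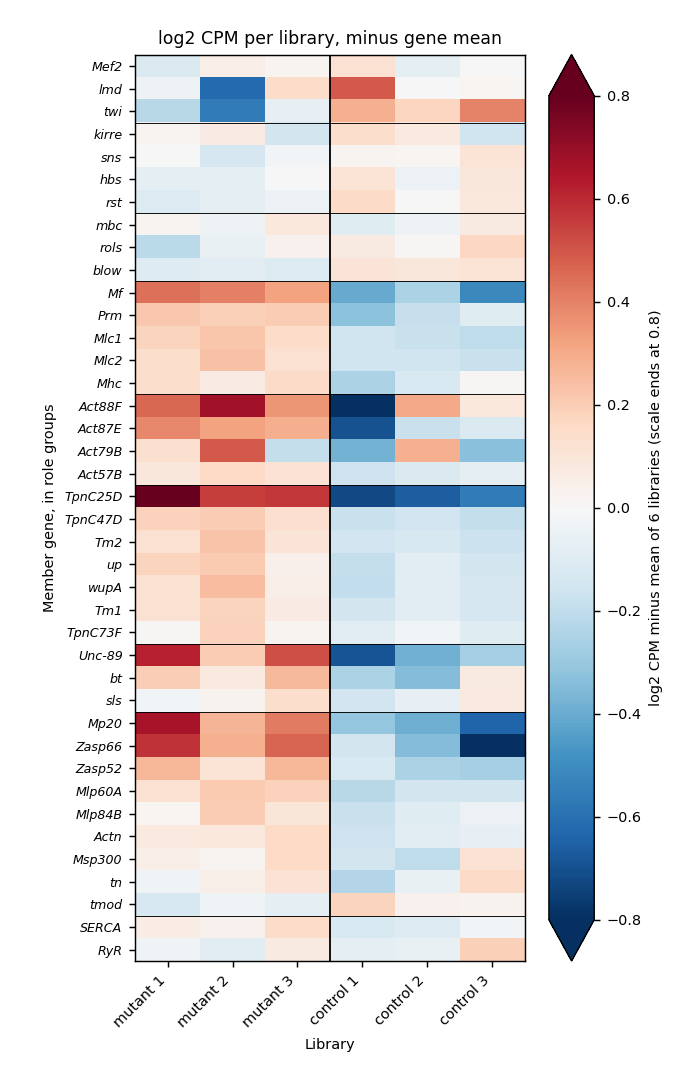
Log2 CPM of each gene in each library minus its mean over the 6 libraries, with genes in rows by role and mutant libraries left of control libraries. Red is above and blue below the gene's mean, and the colour scale ends at 0.8. The sarcomere rows are mostly red in the 3 mutant columns and blue in the 3 control columns, and the top 10 rows are paler apart from twi and lmd.

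The size of the rise was uneven among sarcomere genes. Of the 20 that rose, 14 had a log2 fold change between 0.20 and 0.45. The other 6, TpnC25D, Mp20, Unc-89, Zasp66, Mf and Act87E, lay above 0.60 and were at least 1.5-fold higher, as were 7.90% of all tested genes. Spearman's rho of the control level per kilobase of exon with the log2 fold change was -0.06 across the 30 sarcomere and muscle function genes, which share libraries and are not independent. It was 0.11 across the 27 of them with at least 100 CPM and 0.34 across all 40 genes. On this scale the highest control levels were those of Act57B (5179 ± 161 CPM per kilobase), Mlc2 (1536 ± 14.4), up (880 ± 31.2) and Mlc1 (863), the last pair within the spread of up. TpnC25D was at 17.4 CPM per kilobase in mutant and 7.09 CPM per kilobase in control embryos, while Mp20 was at 458 in mutant and 246 in control embryos on the same scale. The read ratio of TpnC25D to TpnC47D was higher in each mutant library than in any control library, as were those of Zasp66 to Zasp52, Unc-89 to bt and Act87E to Act57B. The log2 ratio of Mlc1 to Mlc2 reads was -1.49 ± 0.02 in mutant and -1.52 ± 0.01 in control embryos, and the groups overlapped. For Mlp60A to Mlp84B it was 0.86 ± 0.05 in mutant and 0.73 ± 0.03 in control embryos, and every mutant value was the higher. For Tm1 to Tm2 it was 0.19 ± 0.03 in mutant and 0.25 ± 0.02 in control embryos, and every mutant value was the lower. These pairs were chosen after the values were seen.

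**Figure D4:**
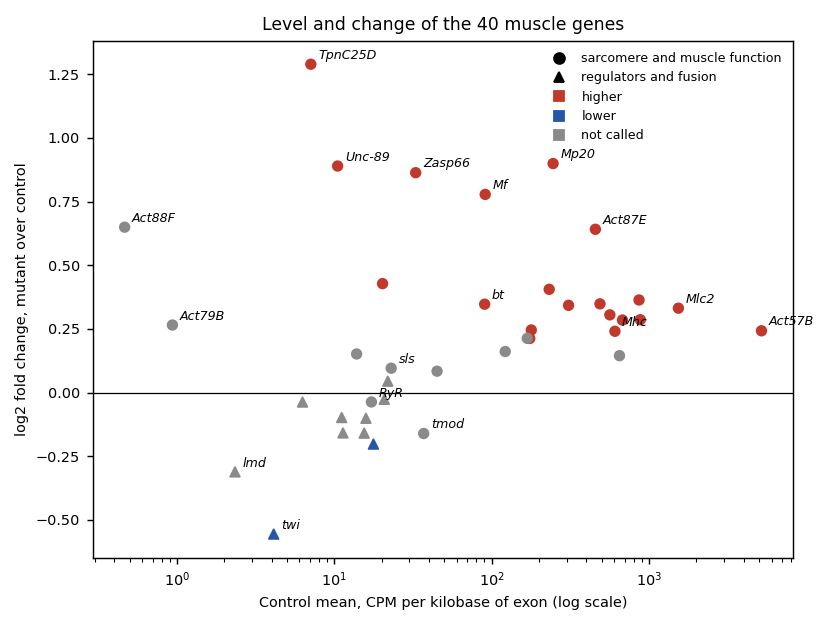
Log2 fold change, mutant over control, against the control mean in CPM per kilobase of exon on a log axis, with 1 point per gene. Circles are sarcomere and muscle function genes, triangles are regulators and fusion genes, and colour marks genes that rose, fell or were not called. The 6 genes above 0.60 that were called range from 7.09 (TpnC25D) to 456 (Act87E) CPM per kilobase.

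The collection with the lowest level of its line was unevenly spread for muscle genes in the control line. Control library 1 was the lowest of its line for 18 of the 30 sarcomere and muscle function genes, control library 3 for 10 and control library 2 for 2. Mutant libraries 1, 2 and 3 were the lowest of their line for 8, 11 and 11, a more even spread. How often each library was the lowest over all tested genes was not counted. The median deviation of these 30 genes from their means over all libraries was 0.14, 0.20 and 0.15 on the log2 scale in mutant libraries 1, 2 and 3, against -0.18, -0.13 and -0.12 in control libraries 1, 2 and 3. The regulators and fusion genes had medians of -0.09, -0.08 and -0.01 in the mutant libraries, against 0.12, 0.01 and 0.09 in the control libraries. Without control library 1, 17 of the 40 genes rose and the median of all 40 was 0.18, against 20 and 0.24 with it. The loss of calls was not particular to that library, since 15 rose without mutant library 1 and 17 without mutant library 2. The number that rose was 15 to 21 over all leave-one-out fits.

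Other muscle genes were read from lists of general knowledge that hold none of the 40, and their counts stand beside the 13.7% of all tested genes that rose and the 8.67% that fell. Of 14 other genes of fusion and its actin machinery, 0 rose and 2 fell by edgeR's test, dock (log2 fold change -0.38) and Hem (-0.23), which act in signalling to actin. Of 18 tested muscle identity and mesoderm regulators, 0 rose and 5 fell, with a median of -0.25. Among these, the transcription factor genes Six4 and vg fell by 0.96 and 0.69, and eve fell by 0.62. Six4 rested on 19, 21 and 23 reads in the mutant libraries, against 42, 51 and 42 reads in the control libraries. Of 17 tested muscle attachment genes, 3 rose and 5 fell. The integrin subunit gene if rose by 0.40, and the adaptor genes Pax and stck rose by 0.33 and 0.23. The O-mannosyltransferase genes tw and rt fell by 0.98 and 0.66, and kon, needed for muscles to find their tendons, fell by 0.46. Of 23 other tested sarcomere and muscle function genes, 3 rose and 2 fell, and the median was -0.05. The share called was close to the 22.3% of all tested genes. Many genes of this list do not encode sarcomere proteins, such as those of glutamate receptors, calcium channels and the dystrophin complex. TpnC4, fln, Zasp67 and Lasp were listed but not tested, so few sarcomere genes outside the 40 were read. Among the remaining genes, Strn-Mlck (log2 fold change -0.14), CAP (0.15), Lmpt (-0.11), Chd64 (-0.10), Gel (0.07), Argk1 (0.14) and jp (-0.09) were not called. The risers were TpnC41C (0.50), a further troponin C gene, and the sarcoglycan genes Scgalpha and Scgdelta (0.32 each). The genes that fell were Dys (-0.25), the dystrophin gene, and Mhcl (-0.20).

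The number of calls in these lists, as over all genes, changed when a library was left out. In the leave-one-out fits 1 to 2 of the other fusion genes were called, with 2 only without control library 3. Of the identity regulators 2 to 5 were called, with 2 without mutant library 3, control library 1 or control library 2 and 3 without mutant library 1. Of the other sarcomere and muscle function genes 1 to 4 were called. It was 1 without mutant library 2 or 3, 2 without mutant library 1 or control library 2, and 3 without control library 3. Of the attachment genes 6 to 8 were called.

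Genes known for roles in earlier or in later embryos were read in the same way. The lists were not limited to genes expressed at a single stage, so they do not measure embryo age. Of 18 tested genes known for roles in earlier embryos, 1 rose, 6 fell and 11 did not pass, beside 13.7% and 8.67% of all tested genes that rose and fell. The median log2 fold change of the 18 genes was -0.24. The genes eve and Kr are in this list and among the identity regulators. Among these, eve, sna and run fell by 0.62, 0.54 and 0.46, and h rose by 0.47. Their summed level was 321 to 330 CPM in the mutant libraries and 358 to 410 CPM in the control libraries. Of 17 tested genes known for roles in the later, cuticle-forming embryo, 5 rose, 2 fell and 10 did not pass, with a median of 0.21. The cuticle genes Lcp2 and Cpr65Ec rose by 2.00 and 1.66 and the dopa decarboxylase gene Ddc rose by 1.41. The tyrosine hydroxylase gene ple and the chitin synthase gene kkv fell by 0.44 and 0.34. Lcp2 rested on 44, 33 and 39 reads in the mutant libraries, against 8, 12 and 12 reads in the control libraries. Summed over this later list, the level was 5437 to 5835 CPM in the mutant libraries and 4354 to 5201 CPM in the control libraries. The largest parts were verm (mean 1891 CPM in mutant and 1722 in control), serp (1085 and 1005) and obst-A (899 and 724). None of these 3 was called, so the sum says little about the genes that were. No tested gene of these lists was at 0 reads in any library. Of the earlier genes 3 to 6 were called in the leave-one-out fits, with 3 without mutant library 3 and 4 without control library 1 or 2, and of the later genes 5 to 8. The part of embryo age in the differences between muscle genes was not tested.

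**Figure D5:**
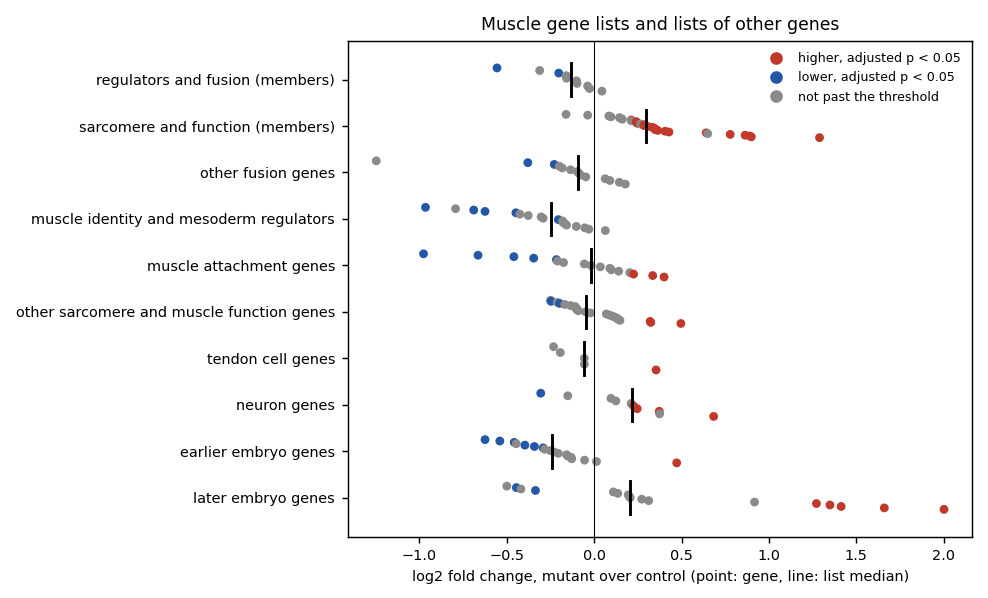
Log2 fold change, mutant over control, of each tested gene (points) and the median (vertical line) for the muscle genes in 2 parts and for 8 lists of other genes, 1 list per row. Colour marks genes past the threshold, and height within a row only separates points. The sarcomere genes have a median of 0.30, and the muscle identity regulators and the earlier embryo genes have medians of -0.25 and -0.24.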

How the data were processed

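For 6 libraries the authors deposited raw counts per gene, in whole reads, and a table of 10526 genes repeating those counts beside log2 CPM, a limma-voom log2 fold change (control over mutant), its p-value and moderated t and log-odds scores. The deposited counts of both tables were equal for all 10526 genes. TopHat2 2.1.1, Bowtie2 2.3.4.0, edgeR 3.14.0 and limma 3.28.21 are listed in the submitters' processing notes. The genome build, the counting tool and its strand setting are not given in the sources used here. Libraries were strand-specific and poly(A)-selected, per the labels' protocols. SDs are over the 3 collections of each line, and standard errors come from the edgeR fit to all libraries; both include variation between collections and counting error. In 10 of the 40 genes exons overlap those of another gene.

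Samples were grouped by title. Genes were kept by filterByExpr (minimum count 10, minimum total 15), TMM-scaled and tested with edgeR 4.0.16 (glmQLFit, glmQLFTest, R 4.3.3), two-sided. The standard error is the log2 fold change divided by the square root of F. Exon lengths come from the union of exons in Ensembl release 115. There 39 of the 40 genes matched by identifier and hbs by symbol. Alternatives were other scalings, filters and tests (DESeq2 1.42.0, limma 3.58.1), a replicate block and each library left out. The code was tested on simulated counts.

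The genes, the lists and the tests were chosen with earlier results of these data known. All 40 genes are named, and from each other list up to 3 genes per direction past the threshold, by size. Some genes of these lists that were not called are named as well. The replicate numbers of the lines were not taken as pairs.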

Additional observations from a re-analysis of the deposited data

How the results depend on the processing

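Other scalings, filters and tests called 20 to 22 of the 40 genes and gave 17 to 21 that rose, against 22 and 20 as reported, and reversed the sign of no gene. The number that fell was 1, not 2, with no filter, with the DESeq2 Wald test, with limma-voom and with the replicate number as a block, since blow lost its call in each. With library size alone it was 3, and the median of the 40 genes was 0.20. The replicate block gave 20 that rose and 1 that fell and changed no other call among the 40. Mutant and control libraries with the same number had deviations from their line means that correlated at -0.02 to 0.01, so the numbers were not taken as pairs. The block left 1 of the other fusion genes, 3 of the identity regulators and 4 of the earlier embryo genes called. With one library left out in turn, 15 to 21 genes were called, 15 to 21 rose, 0 to 1 fell, the median ran from 0.18 to 0.24 and the calls over all genes from 1295 to 2146, against 2350. Calls over all genes were lowest without mutant library 3 (1295), mutant library 1 (1395) and control library 2 (1499). Each of the 12 genes called in all 6 of these fits rose. The sign changed in some of these fits for the log2 fold changes of Mef2 (-0.087 to 0.026), kirre (-0.13 to 0.020), mbc (-0.00077 to 0.086), tn (-0.0082 to 0.18) and RyR (-0.10 to 0.049), none of them called. Without control library 3, Msp300 was called (log2 fold change 0.25, edgeR adjusted p 0.0405). The cause of these changes was not tested.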

Other observations

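Neurons, which contact the muscles at this stage, were read from a list of 10 genes. Of these, 4 rose and 1 fell by edgeR's test, with a median log2 fold change of 0.22. Beside these counts stand the 13.7% of all tested genes that rose and the 8.67% that fell. The GABA receptor gene Rdl rose by 0.68, and the synaptic vesicle genes Syn and Syt1 rose by 0.37 and 0.25. The RNA-binding protein gene elav, a general marker of neurons, fell by 0.31, at 245 CPM in the mutant line and 303 CPM in the control line. Between 2 and 5 genes were called in the leave-one-out fits, with 2 without mutant library 3 and 3 without mutant library 1 or 2 or control library 2. Summed over the list, the level was 2120 to 2126 CPM in the mutant libraries and 1958 to 2052 CPM in the control libraries. Its largest part was fne (mean 560 CPM in mutant and 622 in control), not called with a log2 fold change of -0.15. The sum therefore does not show the direction of each gene.

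Tendon cells, to which the muscles attach, were read from 5 genes. Of these, 1 rose and 0 fell, beside 13.7% and 8.67% of all tested genes. Only shot, which encodes a linker of actin and microtubules made in many tissues, rose, by 0.35 on the log2 scale (edgeR adjusted p 0.0442), and its mutant and control values overlapped. The call of shot was lost without mutant library 1 or 3, without control library 1 or 2, and with either DESeq2 size factors or upper-quartile scaling. The tendon factor gene sr had a log2 fold change of -0.19 (edgeR adjusted p 0.0878), and Tsp, for a matrix ligand of muscle integrins, one of -0.06.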
